A study of Mus musculus with 4 samples.

Results

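The genes described here are Lefty1 (ENSMUSG00000038793) and Lefty2 (ENSMUSG00000066652), taken by symbol as 2 of the 1593 genes in the authors' deposited table. RNA was sequenced from 46C cells, which are mouse embryonic stem cells with a fluorescent reporter knocked into the neural gene Sox1. All cultures had serum and the MEK inhibitor PD0325901 (1 µM), and lasted 24 h. The PD group (2 libraries) received nothing more, and no vehicle is named. The PC group (2 libraries) had CID755673 added, a protein kinase D inhibitor, at a dose the sources used here do not give. The treatment label of every library places CID755673 in PC, whereas the series text, which mentions presence before absence and PD before PC, could be read the other way round. The library labels were followed, and every direction given here rests on them. The comparison asked which genes CID755673 regulates in these cells, all of which had MEK inhibited, so no group shows the genes with MEK active. The labels do not say that replicate libraries stem from different cultures, so the p-values rest on a spread between libraries that may be technical.

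Nodal is a secreted signal of the TGF-beta family. It binds type I and type II activin receptors together with a coreceptor of the EGF-CFC family, and the receptors phosphorylate Smad2 and Smad3, which enter the nucleus with Smad4 and act with partners such as Foxh1. Lefty proteins are diverged members of the same family that bind Nodal or its coreceptor and block this signal. Their genes are themselves switched on by it, which makes a negative feedback loop. In the mouse embryo both are known for setting the left-right axis, Lefty1 mainly at the midline and Lefty2 mainly in the left lateral plate mesoderm, and both are expressed in pluripotent cells.

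The genes lie near each other on chromosome 1. Looked up by identifier in GENCODE M21 on build GRCm38, Lefty2 spans chr1:180893108-180899103 and Lefty1 spans chr1:180935022-180938400, both protein-coding and both on the plus strand. The submitters' processing notes name build mm9, and these positions are of GRCm38 only. The genes are 35918 bases apart. Each has 4 exons in its protein-coding transcript, and 0 other genes have exons that overlap them. Their coding sequences are both 1107 bases long with the stop codon, and the coding parts of each pair of exons are equal in length. After the stop codon the transcript of Lefty2 goes on for 1290 bases and that of Lefty1 for 425.

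Because reads can be told apart only where the sequences differ, the stretch of 120 coding bases inside 1 exon with the most mismatches is shown. It covers coding positions 46 to 165 in exon 1, counted from the first base of the start codon, and has 34 mismatched bases, in capitals. In GRCm38 this stretch is chr1:180935155-180935274 in Lefty1 and chr1:180893229-180893348 in Lefty2, both written 5′ to 3′ on the plus strand.
Lefty1: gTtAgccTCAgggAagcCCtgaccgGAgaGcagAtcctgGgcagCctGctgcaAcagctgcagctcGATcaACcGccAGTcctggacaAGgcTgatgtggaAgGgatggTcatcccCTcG
Lefty2: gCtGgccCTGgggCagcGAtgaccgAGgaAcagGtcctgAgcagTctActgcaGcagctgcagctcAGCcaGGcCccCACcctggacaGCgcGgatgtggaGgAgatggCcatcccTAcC

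Over the whole coding sequence 1017 of 1107 bases were identical, or 91.9%. Identity was 77.6% in the coding part of exon 1, against 94.3% in exon 2, 98.0% in exon 3 and 95.9% in exon 4. The longest identical run was 140 bases. Of all windows of 50 bases in the Lefty1 transcript, 17.9% also occurred in the Lefty2 transcript, and 11.6% of those of Lefty2 occurred in Lefty1. For windows of 100 bases the shares were 4.8% and 3.07%, and for windows of 150 bases both were 0%. The sources used here give neither the read length nor the treatment of reads that match both genes, so the split of reads between the genes is uncertain and their sum is given beside each.

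**Figure D1:**
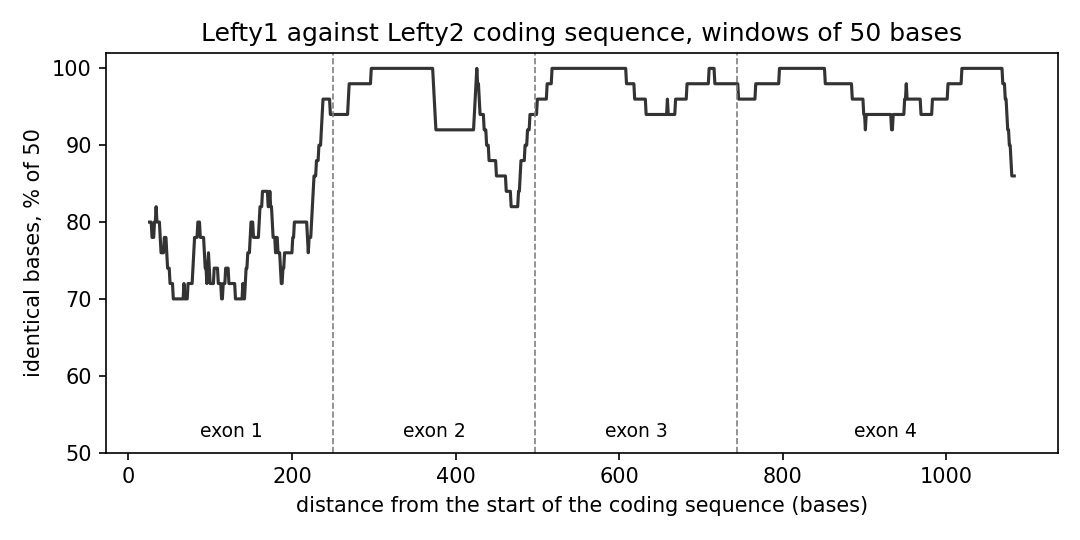
Identity of the Lefty1 and Lefty2 coding sequences in sliding windows of 50 bases. The x axis is the distance from the start of the coding sequence in bases, the y axis the percent of identical bases, and dashed lines are exon borders. Exon 1 stands lowest, with 77.6% identity over its coding part, and the other exons lie between 94.3% and 98.0%.

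Both Lefty transcripts were lower with CID755673, and by the reads as assigned Lefty2 was lower by the larger factor. The values are normalized reads, which are read counts divided by 1 size factor per library. The table was deposited as a selection on this same comparison: every listed gene has an absolute log2 change of at least 1 and a p under 0.05 in the authors' test. That Lefty1 and Lefty2 differ at all between PD and PC is therefore a condition of their being listed and no independent result. The sizes, the spread between libraries and the relation between the genes follow. The selection also favours large sizes and a small spread. The deposited samples are bulk RNA, in which fewer cells that express a gene and less RNA per cell cannot be told apart.

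Lefty2 stood at 20599.1 and 20493.6 normalized reads in PD replicates 1 and 2, and at 5589.8 and 5003.5 in PC replicates 1 and 2. Every PD library was at least 3.67 times as high as every PC library, so the groups lay far apart, as they did without overlap in 99.7% of all listed genes. The means were 20546.3 ± 74.6 in PD and 5296.6 ± 414.6 in PC (SD, n = 2), 3.88-fold apart. On the log2(normalized reads + 1) scale Lefty2 fell by 1.96 (SE 0.09, 95% interval -2.19 to -1.73; p from limma 0.011 after Benjamini-Hochberg adjustment over the 31432 genes the authors tested). The replicates of PD differed by 0.01 on that scale and those of PC by 0.16.

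Lefty1 stood at 14448.4 and 15522.6 normalized reads in PD replicates 1 and 2, and at 5486.2 and 5819.5 in PC replicates 1 and 2. The lowest PD library was 2.48 times as high as the highest PC library. The means were 14985.5 ± 759.6 in PD and 5652.9 ± 235.7 in PC (SD, n = 2), 2.65-fold apart. Lefty1 fell by 1.41 on the log2 scale (SE 0.09, 95% interval -1.63 to -1.19; adjusted p from limma 0.012). Its replicates differed by 0.10 in PD and 0.09 in PC. A change larger than the spread within groups is favoured by the authors' selection on p. The groups did not overlap in 99.7% of all listed genes.

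Summed, the reads of both genes do not depend on how reads were divided between them. Reads that match both genes would still affect the sum if they were dropped or counted for both. In PD the sum was 35047.4 and 36016.2 normalized reads, and in PC it was 11076.0 and 10823.0. It fell by 1.70 on the log2 scale (SE 0.07; adjusted p from limma 0.011), and its mean in PD was 3.25 times that in PC. The replicates of the sum differed by 0.04 in PD and 0.03 in PC, less than those of Lefty1, and in PC less than those of Lefty2. Of all reads on listed genes, both genes together took 5.72% and 5.75% in PD and 2.22% and 2.1% in PC.

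**Figure D2:**
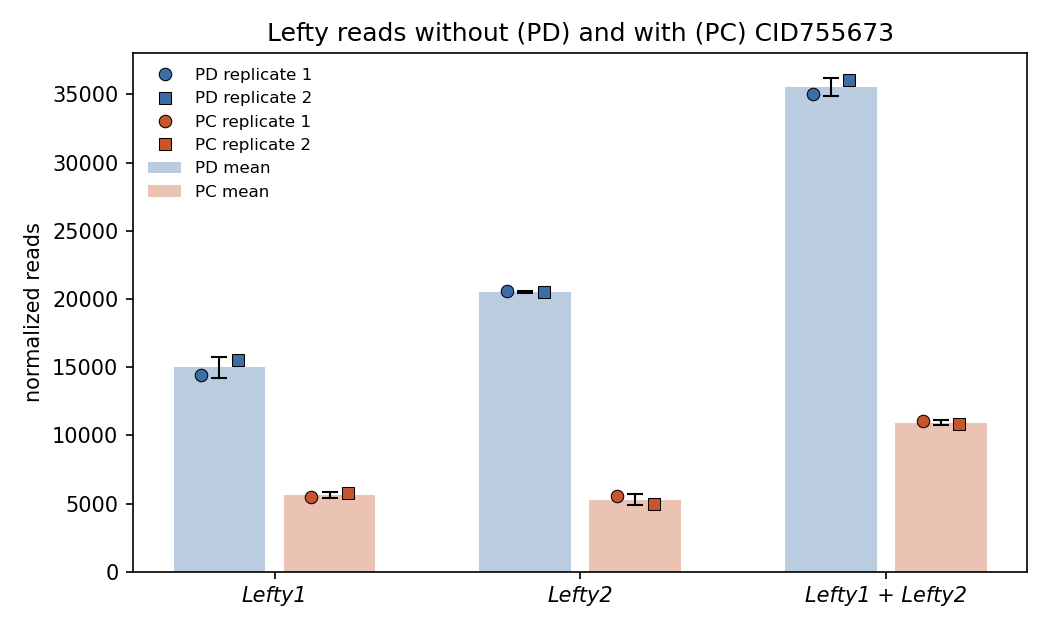
Normalized reads (y axis, linear from 0) of Lefty1, Lefty2 and their sum in PD (blue) and PC (orange). Bars are means, error bars are SD (n = 2), and circles and squares are replicates 1 and 2. Lefty2 lies above Lefty1 in PD, at 20546.3 against 14985.5, and both lie close together in PC, at 5296.6 and 5652.9.

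limma called 495 of the 1593 listed genes at an adjusted p under 0.05, or 31.1%, and 316 of them, 19.8% of the listed genes, were lower in PC. Both Lefty genes were among these. Scaled instead to the median ratio of the listed genes, most of which are lower in PC, log2 changes moved up by about 1.00 and the split of calls turned from 179 higher and 316 lower to 261 higher and 46 lower. Under that scaling Lefty2 was still called, with a log2 change of -0.95 (adjusted p from limma 0.021), and Lefty1 was not, with -0.40 (adjusted p from limma 0.47). In the authors' deposited table, which rests on their own test over all 31432 genes, Lefty2 has a p of 1.86e-204, at rank 4 of all genes tested, and Lefty1 a p of 6.21e-119, at rank 10. The authors' p also served to select the listed genes, and their test is not named. By the p from limma, Lefty2 was at rank 8 and Lefty1 at rank 29 of the 1593 listed genes. A false discovery rate under 0.05 in that table was held by 70.2% of the listed genes.

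The limma calls of both genes were lost with any 1 library left out, and with a prior for the spread that has no trend. Leaving out PD replicate 1, PD replicate 2, PC replicate 1 or PC replicate 2 gave Lefty1 an adjusted p from limma of 0.50, 0.51, 0.29 and 0.32, and Lefty2 one of 0.47, 0.49, 0.27 and 0.31, with log2 changes from -1.46 to -1.35 and from -2.04 to -1.88. In the fit without trend the adjusted p from limma was 0.16 for Lefty1 and 0.14 for Lefty2.

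Lefty2 took a smaller share of the reads on both genes in the PC libraries than in the PD libraries. This share is taken within a library and does not depend on size factors or on any scaling between libraries. Reads of Lefty2 numbered 21243 of 36143 reads on both genes in PD replicate 1, a share of 58.8% (95% Clopper-Pearson interval 58.3 to 59.3%). In PD replicate 2 they were 22361 of 39298, or 56.9% (56.4 to 57.4%). In PC replicate 1 they were 6747 of 13369, or 50.5% (49.6 to 51.3%), and in PC replicate 2 they were 4206 of 9098, or 46.2% (45.2 to 47.3%). Both PC shares lay below both PD shares, and none of the intervals, which cover counting error only, overlapped another.

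Expressed as log2 of Lefty2 over Lefty1, the values were 0.51 and 0.40 in PD and 0.03 and -0.22 in PC. The mean moved from 0.46 ± 0.08 to -0.10 ± 0.17 (SD, n = 2), a difference of -0.55. By the reads as assigned, this is how much further Lefty2 was lowered than Lefty1, and the split of reads between the genes is uncertain. An exact two-sided permutation test of the 4 libraries gave p = 0.333, which is the smallest p that this permutation test can give for 2 libraries against 2, so it cannot place the difference under 0.05. No other test of this difference was run. The replicates differed by more than their counting error in both groups. Leaving out each library in turn gave differences from -0.67 to -0.43.

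**Figure D3:**
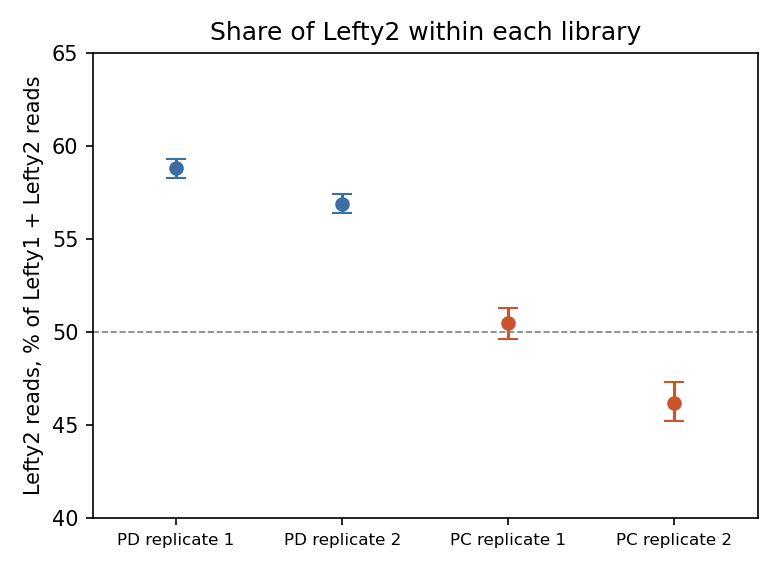
Reads of Lefty2 as a percent of the reads on Lefty1 and Lefty2 together (y axis, from 40 to 65%) in each library (x axis). Points are the 4 libraries, bars are 95% Clopper-Pearson intervals and the dashed line is 50%. The PD libraries sit at 58.8% and 56.9%, and the PC libraries at 50.5% and 46.2%.

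Set per length, the order of the genes was different from the order of their reads. Divided by the exon length in GENCODE M21 (2611 bases for Lefty2 and 1758 for Lefty1), Lefty1 had 8219 and 8830 normalized reads per kb in PD and 3121 and 3310 in PC. Lefty2 had 7889 and 7849 normalized reads per kb in PD and 2141 and 1916 in PC. Lefty1 was thus above Lefty2 in every library on this scale, by a narrow margin in PD and a wider one in PC. This order rests on the uncertain split of reads and on lengths that may differ from those of the authors' unknown annotation. The narrow margin in PD therefore does not settle which gene was higher. With the length of the protein-coding transcript alone, the level of Lefty2 per kb was 0.934 and 0.865 times that of Lefty1 in the PD libraries and 0.667 and 0.563 times in the PC libraries.

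In both PD libraries Lefty1 and Lefty2 held ranks 1 and 2 in normalized reads per kb among the 1589 listed genes with an exon length in GENCODE M21. With CID755673 they moved down that order. This move is no independent result, since the listed genes were selected on a change and 613 of them were higher in PC. Lefty1 held rank 8 in PC replicate 1 and rank 7 in PC replicate 2, and Lefty2 held ranks 11 and 14. Genes outside the table have no rank here, and many abundant transcripts may be among them.

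By normalized reads not set per length, Lefty2 and Lefty1 were at ranks 3 and 6 of the 10 listed genes with the highest means over the 4 libraries. Other genes among these 10 that fell were the threonine dehydrogenase gene Tdh, with a log2 change of -1.19, the polo-like kinase gene Plk2 (-1.15), the kelch-family gene Enc1 (-1.08) and the histone demethylase gene Kdm2a (-1.11). Genes among them that rose were the ERK phosphatase gene Dusp9 (1.21), the mitochondrial carrier gene Ucp2 (1.31) and the meiotic cohesin gene Rec8 (1.99). Ucp2 was not called with a pseudocount of 0.1. Lefty2 and Lefty1 had the lowest log2 changes of the genes named here from these 10. Among the 18 listed genes with a mean over 5000 normalized reads, they were at ranks 1 and 4 by size of fall. Among all 980 listed genes that were lower in PC, Lefty2 was only at rank 272 and Lefty1 at rank 574.

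The other genes of the Nodal and Activin pathway were mostly outside the table. Of 7 ligand genes, among them Nodal and Gdf3, 0 were listed, and likewise 0 of 2 ligand-processing genes, 0 of 4 receptor genes and 0 of 6 transducer genes, among them Smad2, Smad3 and Foxh1. A gene that is not listed may have changed by less than the authors' limits, and its level is not analysed here. Altogether 5 genes of 43 symbols were listed, besides Lefty1 and Lefty2, and 42 symbols were found in GENCODE M21, where Cripto is entered as Tdgf1. Of these 5, 3 were higher and 2 lower in PC, and 1 passed the test in each direction, beside 11.2% of all listed genes called higher and 19.8% called lower. Of all 1593 listed genes, 613 were higher and 980 lower. The median log2 change of the 5 was 1.11, against -1.17 over all listed genes. Since every listed gene has an absolute log2 change of at least 1, the sign of such a median only shows which direction held more genes.

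Among the coreceptors, Cfc1, which encodes the EGF-CFC protein Cryptic, was sparse. It had 15.5 and 44.0 normalized reads in PD and 9.9 and 2.4 in PC, and did not pass (adjusted p from limma 0.83). In normalized reads, the PD libraries differed by more from each other than the lower PD library did from either PC library, which does not hold on the log2 scale. Among the other inhibitors, Dand5, a secreted Nodal antagonist of the Cerberus family that acts in left-right patterning, had 80.5 and 86.1 normalized reads in PD and 199.7 and 164.2 in PC. Its log2 change of 1.11 (SE 0.19) was opposite in sign to those of the Lefty genes and did not pass (adjusted p from limma 0.089).

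Of 12 target genes, 3 were listed. Cdkn2b, a cell cycle inhibitor gene that TGF-beta signalling switches on, had 311.3 and 355.6 normalized reads in PD and 136.7 and 149.9 in PC, and fell by 1.21 on the log2 scale (SE 0.15; adjusted p from limma 0.032). Gata6, a transcription factor of endoderm, had 193.0 and 184.2 in PD and 380.3 and 467.5 in PC, and rose by 1.16 (SE 0.15; adjusted p from limma 0.040), though not with a pseudocount of 0.1 (adjusted p from limma 0.062). Sox17, another endoderm factor, had 28.1 and 25.7 in PD and 86.2 and 44.0 in PC, and did not pass (adjusted p from limma 0.74). The listed targets therefore did not share 1 direction.

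Of 14 genes of the BMP branch of the family, which signals through Smad1 and Smad5, only Id2 was listed. Id2, an inhibitor of helix-loop-helix transcription factors and a target of BMP, had 2143.0 and 1971.4 normalized reads in PD and 4319.7 and 4549.0 in PC. It rose by 1.11 (SE 0.09; adjusted p from limma 0.014), while the Lefty genes fell.

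The authors' deposited table also annotates genes with KEGG pathways, and 7 listed genes, Lefty1 and Lefty2 included, carry its TGF-beta signalling pathway. Of these 7, 6 were lower in PC, as were 980 of all 1593 listed genes. Of the 7, 4 passed as lower, 2 of them the Lefty genes themselves, and 1, Id2, passed as higher, beside 19.8% and 11.2% of all listed genes. The median log2 change of the 7 was -1.53, against -1.17 over all listed genes. Besides the Lefty genes and Cdkn2b, the growth-promoting transcription factor gene Myc passed as lower, at 452.8 and 599.4 normalized reads in PD and 169.0 and 190.3 in PC. Bmp8a, a BMP ligand, at 97.0 and 88.0 against 53.0 and 17.8, did not pass. Nor did Inhbc, an inhibin and activin subunit, at 35.9 and 49.5 against 13.3 and 10.7. This grouping and these 3 genes were chosen after their values were seen.

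**Figure D4:**
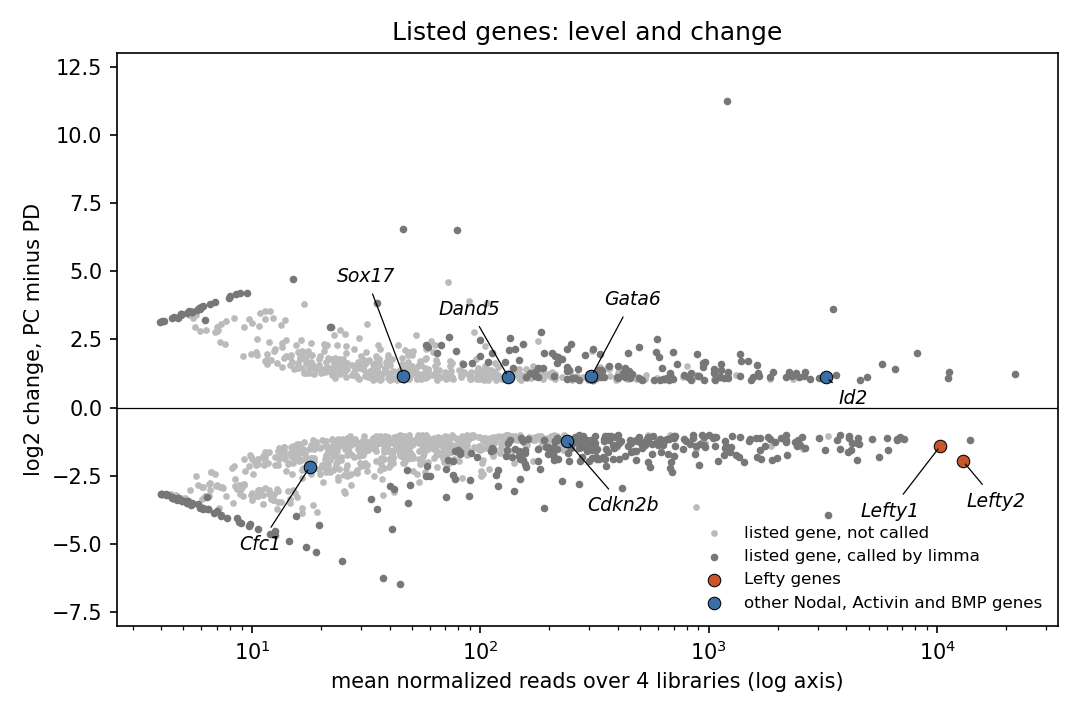
Mean normalized reads over the 4 libraries (x axis, log scale) against the log2 change of PC minus PD (y axis) for the 1593 listed genes. Dark grey points were called by limma and light grey points were not, and orange and blue points mark the Lefty genes and the other listed Nodal, Activin and BMP genes. The empty band around 0 is the authors' limit on the change, and the Lefty genes lie at the high end of reads, at -1.41 and -1.96.

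The genes around the Lefty pair were not listed. Of 4 other protein-coding genes within 50 kb of the pair in GENCODE M21, 0 were in the table, and their levels are not analysed here. Of the wider set of 15 symbols on that part of chromosome 1, 1 was listed. This was Dnah14, an axonemal dynein gene 638 kb beyond Lefty1, with 47.5 and 62.3 normalized reads in PD and 24.9 and 16.7 in PC, and it did not pass (adjusted p from limma 0.35).

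Profiles over the 4 libraries, each centred on its own mean of log2 values, were compared with those of the 596 other listed genes with a mean of at least 100 normalized reads. The genes closest to Lefty2 were Aass, a lysine-degrading enzyme gene, at a Euclidean distance of 0.018, then Gm8038, Gm4782, the zinc finger gene Zfp750 and the 2-cell-stage gene Zscan4a, up to a distance of 0.092. Zscan4a has near-identical copies, so its value is uncertain. The genes closest to Lefty1 were Gm13231, at 0.035, then Pdzd4, Serpinb6c, Vwa3b and the imprinted gene Magel2, up to 0.086. The members of the pair were not closest to each other. Lefty2 was at a distance of 0.584 from Lefty1, which 296 other genes undercut, and from Lefty2 there were 114 genes closer than Lefty1. With 4 libraries in 2 groups, such a distance mostly reflects the size of the change.

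The listed markers of the labelled cell type were lower in PC, as were the Lefty genes and 980 of all 1593 listed genes. The marker lists were chosen with earlier results of these data known, so counts over them are no independent result. Of 12 embryonic stem cell markers 3 were listed, and all 3 were called lower, beside 19.8% of all listed genes. They were Utf1, a chromatin factor of pluripotent cells, with a log2 change of -1.94, Dnmt3l, a cofactor of DNA methylation, with -1.80, and Lin28a, which encodes an RNA-binding protein, with -1.12. Summed, these 3 stood at 23343.3 and 24382.3 normalized reads in PD and 8211.1 and 7975.1 in PC. Defining markers such as Pou5f1, Sox2 and Nanog are not listed and are not analysed here. These 3 genes are listed because they changed, so they cannot check the labelled cell type. Of 8 extra-embryonic endoderm markers 2 were listed, Gata6 and Sox17, with sums of 221.1 and 209.9 in PD and 466.4 and 511.5 in PC, and 1 passed. Of 6 fibroblast, 5 trophoblast and 4 mesoderm markers 1 each was listed, all with lower values in PC and none passing, and of 4 neural progenitor markers 0 were listed. The summed listed markers ranged from 89.2 to 113.6 in PD and from 38.9 to 48.8 in PC for fibroblasts (Col3a1), from 380.1 to 384.0 and from 133.2 to 194.7 for trophoblast (Gata3), and from 63.0 to 80.7 and from 20.2 to 36.5 for mesoderm (Kdr). The part of these markers in the Lefty result was not tested. Unlike those of the Lefty genes, exons of Cfc1, Sox17, Gata6, Dnah14, Dnmt3l, Lin28a, Col3a1, Gata3, Inhbc, Tdh, Ucp2 and Pdzd4 overlap exons of other genes in GENCODE M21, and with the strand setting unknown their values are uncertain.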

How the data were processed

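RNA sequencing libraries of 46C cells were compared between PD and PC, 2 libraries each, grouped by the labels. Bowtie 0.12.2 and build mm9 appear in the submitters' processing notes without a role. The sources used here do not give how reads were counted, on which annotation and strand, or which test the authors ran. Per library, the authors deposited log2 values. With the log undone and 1 subtracted, 100.0% of values were whole multiples of 1 step per library (tolerance 0.001 reads), so each is log2 of a read count over a size factor, plus 1. The size factors were 1.0313 and 1.0911 (PD) and 1.207 and 0.8406 (PC). Per the file headers, further columns are p-values and false discovery rates, whose ratio gives 31432 genes tested by the authors. Recovered reads on the listed genes ranged from 433684 to 683777 per library, and the full depth is unknown. Replicates were not copies of each other (chi-square per degree of freedom 7.03 in PD and 6.57 in PC).

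The deposited log2 values were tested with limma 3.58.1 in R 4.3.3, with a trended prior, 2 residual degrees of freedom and a mean of at least 1 normalized read, which removed 0 listed genes. Benjamini-Hochberg adjustment ran over 31432 genes, with unlisted genes taken as having larger p-values. The prior rests on genes selected for small p in these libraries, which can make the spread too small. The sum of both Lefty genes was fitted as 1 gene in place of both. The ratio of both was tested by an exact permutation test (scipy 1.17.1). The procedure was run on simulated data in which most genes did not change. The listed genes were selected for change, so that run does not vouch for the calls made here. Named genes were the Lefty genes, listed genes of Nodal, Activin and BMP lists, of cell type marker lists and of the locus, the 10 with the highest means and the 5 nearest profiles of each. The members and lists were chosen with earlier results of these data known. Sequences and positions are from GENCODE M21 (GRCm38). Some genes and sequences that these rules name are not reported here. Alternatives were the pseudocount, filter, scaling, prior, voom, replicate block, adjustment and each library left out.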

Additional observations from a re-analysis of the deposited data

How the results depend on the processing

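Each of the 3 log2 changes (Lefty1, Lefty2 and their sum) was recomputed under 14 alternatives. All 42 values kept their direction, which leaving out a library cannot reverse where groups do not overlap, and 23 kept an adjusted p under 0.05 in limma. Without size factors the changes were -1.48 for Lefty1, -2.03 for Lefty2 and -1.77 for the sum, none called, and 64 genes were called in all. Scaled to the median ratio of the listed genes, Lefty1 changed by -0.40 and was not called, and 307 genes were called. This scaling assumes that the median listed gene did not change. With a prior without trend the changes were the same, -1.41, -1.96 and -1.70, none was called, and 1 gene was called in all. With each library left out the changes ranged from -1.46 to -1.35 for Lefty1, from -2.04 to -1.88 for Lefty2 and from -1.72 to -1.68 for the sum, none called, and 33 to 61 genes were called. These fits take the lone library to vary as the other group does. Adjusted over the listed genes alone, 1536 genes were called, since they had been selected on p. Of 15 other called genes named here (pathway, marker, annotation and highest-mean genes), 15 lost the call without size factors, with the prior without trend and with any 1 library left out, 8 under the median ratio scaling and 2 with a pseudocount of 0.1, and 0 changed direction under any alternative. The cause of the lost calls was not tested under any alternative.

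The replicate numbers are shared between PD and PC, but no label says that they pair libraries. With the replicate block the changes were -1.41, -1.96 and -1.70, all called, and the difference between the genes was -0.55. In all, 1176 genes were called with fewer residual degrees of freedom. The SEs were larger than in the main fit, at 0.16, 0.17 and 0.18 against 0.09, 0.09 and 0.07. The adjusted p from limma was nevertheless far smaller, at 6.8e-15, 2.1e-27 and 2.2e-17. These calls therefore do not reflect a smaller spread, and they add no support from pairing. Deviations of same-numbered libraries from their group means had a correlation of -0.0001 across the 1593 listed genes. The reads on each Lefty gene, 4206 or more per library, leave little counting error. The number of libraries limits the precision.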

Other observations

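In the authors' deposited annotation Lefty1 and Lefty2 each carry 50 biological process terms, of which 29 are shared. The terms on regulation of Nodal signalling and on the response to retinoic acid stand on the row of Lefty1 and not on that of Lefty2. Whether the column is cut at 50 terms was not checked, so a term absent from a row may still belong to the gene. Of all listed genes 3 carry a biological process term on Nodal signalling: Lefty1, Dand5 and Dmrt1, a transcription factor gene of the testis, which was chosen after its values were seen. Dmrt1 had 1279.0 and 1298.7 normalized reads in PD and 3146.6 and 3275.0 in PC, with a log2 change of 1.32 (SE 0.08; adjusted p from limma 0.012).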
